A study of Mus musculus with 4 samples.

Results

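Of the 32151 genes measured in whole mouse kidney, 10 are described here: the principal cell genes of water and sodium transport, taken from the deposited expression table by name. They are the vasopressin receptor gene Avpr2, the water channel genes Aqp2, Aqp3 and Aqp4, the mineralocorticoid receptor gene Nr3c2, the steroid enzyme gene Hsd11b2, the epithelial sodium channel genes Scnn1a, Scnn1b and Scnn1g, and the pump regulator gene Fxyd4. All 10 were in the table, all 10 are protein-coding in GENCODE M21, and 9 passed the filter on low values. The 4 libraries came from 2 ADPKD samples (autosomal dominant polycystic kidney disease, in which cysts grow from kidney tubules) and 2 wild-type (WT) samples. The ADPKD samples have the genotype Pkd1fl/fl; Cre/Esr1+, that is, a floxed Pkd1 gene and a Cre recombinase under the control of a tamoxifen-responsive receptor. The same tamoxifen treatment is written for each of the 4 samples, also for WT, 10 mg/kg on postnatal day 10, and call the model early-onset. The WT samples are labelled wildtype, and the labels name neither the promoter that drives Cre nor the age at which kidneys were taken. Nothing in the labels says that replicates were separate animals, so the p-values speak only of the spread among these 4 libraries.

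Principal cells line the collecting duct and the connecting tubule and set the final water and sodium content of urine. Vasopressin binds its receptor on the basolateral side and raises cAMP, which brings the water channel aquaporin 2 to the apical membrane and raises transcription of its gene; water then leaves through aquaporins 3 and 4 on the basolateral side. Aldosterone binds the mineralocorticoid receptor, 11-beta-hydroxysteroid dehydrogenase 2 keeps cortisol and corticosterone away from that receptor, and the apical sodium channel ENaC, built of an alpha, a beta and a gamma subunit, carries sodium into the cell. In polycystic kidneys, many cysts come from the collecting duct, and the vasopressin receptor is the target of a drug against cyst growth.

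Values are FPKM, that is, reads scaled to exon length and to the assigned reads of the library, so that levels of different genes can be set side by side. Depth ranged from 18001308 to 19955120 assigned reads per library. Differences were tested by limma on log2(FPKM + 1) over the 17001 genes with a mean of at least 0.5 FPKM, and a gene was called at a Benjamini-Hochberg adjusted p below 0.05. The floxed gene itself, Pkd1, read 1.97 and 2.12 FPKM in WT (replicates 1 and 2, in this order throughout) against 2.48 and 2.08 FPKM in ADPKD (log2 fold change 0.10, SE 0.17, limma adjusted p = 0.703). Reads summed over all exons may not show the loss of a few of them, and loss of exons was not tested. ADPKD replicate 2 had Xist at 29.6 FPKM and the Y-linked gene Ddx3y at 0.0482 FPKM, against Xist of at most 0.0217 FPKM and Ddx3y of 8.46 to 15.1 FPKM in the other 3 libraries. The ADPKD libraries thus differed in sex from each other, and the sexes were not balanced between the groups.

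None of the 9 genes tested passed the test in either direction, beside 14.2% of all 17001 genes tested (9.43% called higher and 4.78% called lower in ADPKD). At an unadjusted p under 0.05 there were 3 of the 9, Scnn1b and Scnn1g on the higher side and Aqp3 on the lower side, beside 34.6% of all genes tested. Voom on reads recovered from the FPKM also called 0 of the 9. The ADPKD libraries lay above both WT libraries for 3 of the 9, beside 43.6% of all genes tested, and below both for 4 of the 9, beside 21.0% of all genes tested. The median log2 fold change of the 9 genes was -0.0135 (range -0.70 to 0.67), and that of all genes tested was 0.18 (range -6.63 to 7.07). In a whole-kidney library, fewer principal cells and less RNA per principal cell cannot be told apart.

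**Figure D1:**
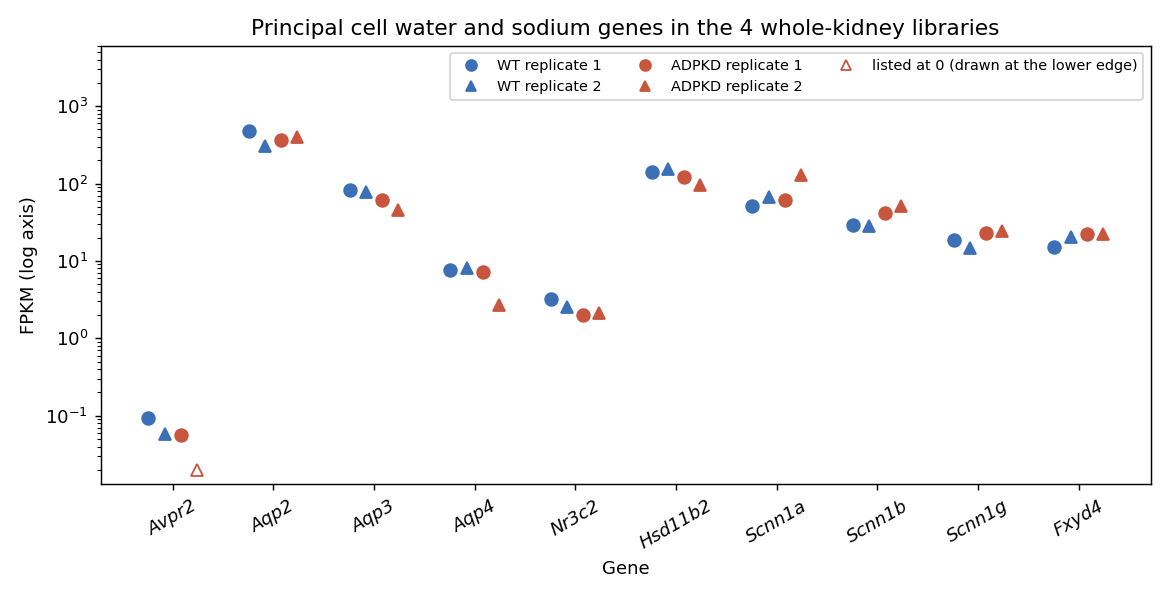
FPKM of each of the 10 genes (log axis) in the 4 libraries, circles for replicate 1 and triangles for replicate 2, blue for WT and red for ADPKD; the open triangle marks the library in which Avpr2 is listed at 0. The levels span from 475 FPKM for Aqp2 to under 0.1 FPKM for Avpr2. The 4 points of a gene lie close together on this axis except for Scnn1a and Aqp4 in ADPKD replicate 2, and for Avpr2, whose 0 is drawn at the lower edge.

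By level, Aqp2 came highest in every library, above at least 99% of the genes tested. In the WT means it was followed by Hsd11b2, Aqp3, Scnn1a, Scnn1b, Fxyd4, Scnn1g, Aqp4, Nr3c2 and Avpr2. Fxyd4 and Scnn1g overlapped in WT (15.2 and 20.1 against 18.6 and 14.7 FPKM), so their order is not beyond the spread. In ADPKD the range of Scnn1a, 60.6 to 128 FPKM, took in that of Hsd11b2, 96.7 to 120 FPKM. Aqp3 stood above Scnn1a in both WT libraries and below it in both ADPKD libraries, by the narrow margin of 60.4 against 60.6 FPKM in ADPKD replicate 1.

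The vasopressin receptor gene Avpr2 (chromosome X, 73892102 to 73895502, plus strand, GRCm38 as in the deposited table) could not be measured from these files. It had 5, 3, 3 and 0 reads in WT replicates 1 and 2 and ADPKD replicates 1 and 2, or 0.0942, 0.0577, 0.0560 and 0 FPKM. In the library at 0, up to 3 reads (0.0521 FPKM) may have gone unseen, and 3 of the libraries are at or under their own such limit, counting error only. Of the 2886 exon bases counted for Avpr2, 2347 (81.3%) lie under exons of Arhgap4, a gene of the opposite strand that is named here after its values were seen. The counting command in the header of the deposited table carries no option for strand and none for giving a read to several overlapping genes, and featureCounts leaves such reads unassigned by default. Taken over the 539 unshared bases alone, the Avpr2 reads equal 0.505, 0.309, 0.300 and 0 FPKM in the same order of libraries. Arhgap4 stood at 0.899 and 0.905 FPKM in WT, against 0.771 and 0.730 FPKM in ADPKD. No statement on the expression of Avpr2 in either group is drawn from these reads.

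Aqp2, the apical water channel gene that vasopressin controls (chromosome 15, 99579055 to 99584547), showed no difference beyond the spread between WT libraries. The WT libraries read 475 FPKM (replicate 1) and 309 FPKM (replicate 2), the ADPKD libraries 361 FPKM (replicate 1) and 400 FPKM (replicate 2). Both ADPKD libraries lay between the WT libraries, which differed from each other by 1.54-fold. ADPKD minus WT came to -0.0135 on the log2 scale (SE 0.26, limma adjusted p = 0.977). Its 95% interval, -0.71 to 0.68, leaves room for a level between 0.611 and 1.61 times that of WT on the log2(FPKM + 1) scale, so equal expression is not shown. The sign turned with the library left out, from 0.30 without WT replicate 1 to -0.32 without WT replicate 2, and the value was -0.24 with median-of-ratios scaling.

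The 250 bases before the start of Aqp2 are shown because the vasopressin signal is known to act on this promoter through cAMP. They were taken from RefSeq promoter sequences on GRCm38.p6, in which 7 of the 10 genes had an entry (not Aqp4, Hsd11b2 and Scnn1a). The capitals mark matches, on either strand, to TGACG, the core of the cAMP response element, to AGATAA, bound by GATA factors, and to TGTTCT, the half-site of the mineralocorticoid and glucocorticoid receptors. The window is chr15:99578806-99579055, plus strand, 5′ to 3′.
Aqp2: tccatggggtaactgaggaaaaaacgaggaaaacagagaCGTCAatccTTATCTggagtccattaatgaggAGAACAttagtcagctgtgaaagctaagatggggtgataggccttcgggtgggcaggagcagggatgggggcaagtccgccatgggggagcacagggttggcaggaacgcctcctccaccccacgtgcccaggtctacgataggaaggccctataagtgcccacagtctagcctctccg
The 3 marked stretches, all matches on the minus strand and none overlapping another, are the cAMP element core at 211 to 207 bases before the start, the GATA site at 202 to 197 and the steroid half-site at 179 to 174. Over the 32851 RefSeq windows of the same length, 17.8% hold the cAMP element core, 9.99% the GATA site and 16.1% the steroid half-site, so that each match alone is common. Among the 7 genes with an entry, the cAMP core and the GATA site were found before Aqp2 only, and the steroid half-site before Aqp2 and Avpr2. A match is a run of letters and does not show binding.

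Aqp3, a basolateral channel for water and glycerol (chromosome 4, 41092722 to 41098183, minus strand), stood lower in ADPKD without passing the test. Its WT values were 83.6 and 77.5 FPKM, and its ADPKD values 60.4 and 46.1 FPKM. Both ADPKD libraries lay below both WT libraries. The log2 fold change was -0.60 (SE 0.19, 95% interval -1.10 to -0.0990, limma adjusted p = 0.103), with an adjusted p of 0.0527 to 0.290 over the 13 alternative settings. Without ADPKD replicate 2 it was -0.41, with an interval of -0.97 to 0.16 that takes in 0. Aqp3 is also made by urothelium. The summed FPKM of 5 urothelial markers was 33.9 and 23.6 in WT, 85.96 in ADPKD replicate 1 and 4.26 in ADPKD replicate 2. In ADPKD replicate 1 that sum lay above both WT libraries while Aqp3 lay below both. In ADPKD replicate 2 the sum and Aqp3 both lay below WT. The part of urothelium in the Aqp3 values was not tested.

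Aqp4, the other basolateral water channel (chromosome 18), was low in 1 library only. Its WT values were 7.61 and 8.10 FPKM, and its ADPKD values 7.13 FPKM (replicate 1) and 2.66 FPKM (replicate 2). The first ADPKD library lay just below WT, and the other at a value 2.68-fold lower than it. The log2 fold change was -0.70 (SE 0.41, 95% interval -1.78 to 0.39, limma adjusted p = 0.295). Leaving out ADPKD replicate 2 gave -0.12, and leaving out ADPKD replicate 1 gave -1.27 (adjusted p = 0.0616), so the difference rests on ADPKD replicate 2, the library with Xist.

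Set against Aqp2 within each library, Aqp3 took a smaller place in ADPKD. The ratio of Aqp3 to Aqp2 was 0.176 and 0.251 in WT replicates 1 and 2 and 0.168 and 0.115 in ADPKD replicates 1 and 2. The groups did not overlap, though WT replicate 1 and ADPKD replicate 1 were close. The exact two-sided permutation p was 0.333, the smallest that 2 against 2 libraries can give. The ratio of Aqp4 to Aqp2 overlapped between groups, at 0.0160 and 0.0262 in WT and 0.0198 and 0.00665 in ADPKD (exact permutation p = 0.667). Neither ratio shows which of its genes differed.

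The 2 genes of mineralocorticoid reception both stood lower in ADPKD, and neither passed the test. Of all 17001 genes tested, 6100 had a log2 fold change below 0, and 21.0% had both ADPKD libraries below both WT libraries. Nr3c2, which encodes the receptor that aldosterone binds (chromosome 8, 76899442 to 77245012), was at 3.23 and 2.55 FPKM in WT and 2.03 and 2.12 FPKM in ADPKD. The groups did not overlap (log2 fold change -0.33, SE 0.18, 95% interval -0.81 to 0.14, limma adjusted p = 0.263). Another gene, on the opposite strand, covers 3.82% of its exons. The Nr3c2 value was -0.21 without WT replicate 1 and -0.59 with quantile normalization (adjusted p = 0.0850). Hsd11b2, which encodes the enzyme that inactivates corticosterone in principal cells (chromosome 8, 105518755 to 105523988), was at 141 and 156 FPKM in WT and 120 and 96.7 FPKM in ADPKD. Its groups did not overlap either (log2 fold change -0.46, SE 0.18, 95% interval -0.94 to 0.020, limma adjusted p = 0.157). The log2 fold change of Hsd11b2 was -0.69 with median-of-ratios scaling (adjusted p = 0.0897) and -0.30 without ADPKD replicate 2. The enzyme's transcript outnumbered the receptor's per kilobase in every library, by 43.8 and 61.3 times in WT and by 59.2 and 45.6 times in ADPKD. That ratio overlapped between the groups (exact permutation p = 1).

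All 3 sodium channel genes stood on the higher side in ADPKD, with the beta and gamma subunit genes clear of WT and none past the test. Of all 17001 genes tested, 10901 had a log2 fold change above 0, and 43.6% had both ADPKD libraries above both WT libraries. Scnn1b, the beta subunit gene (chromosome 7, 121865038 to 121918514), had WT values of 29.3 and 28.1 FPKM and ADPKD values of 41.4 and 51.5 FPKM. It had the smallest adjusted p of the 9 genes tested (log2 fold change 0.67, SE 0.17, 95% interval 0.22 to 1.12, limma adjusted p = 0.0688). Scnn1g, the gamma subunit gene (chromosome 7, 121734479 to 121768475), was at 18.6 and 14.7 FPKM in WT and 22.7 and 24.7 FPKM in ADPKD (log2 fold change 0.49, SE 0.18, 95% interval 0.0234 to 0.96, limma adjusted p = 0.132). In both genes each ADPKD library lay above each WT library. The size of these differences depends on the scaling: with median-of-ratios scaling the log2 fold change was 0.45 for Scnn1b (adjusted p = 0.273) and 0.27 for Scnn1g (0.405). Without ADPKD replicate 2 the value for Scnn1b was 0.52 (interval -0.0030 to 1.03, adjusted p = 0.169). The adjusted p of Scnn1b ran from 0.0515, with voom on recovered reads, to 0.273 over the 13 alternative settings.

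Scnn1a, the alpha subunit gene (chromosome 6, 125320659 to 125344943), was set apart by ADPKD replicate 2. Its WT values were 51.0 and 66.8 FPKM, and its ADPKD values 60.6 FPKM (replicate 1) and 128 FPKM (replicate 2). ADPKD replicate 1 lay between the WT libraries. The log2 fold change was 0.59 (SE 0.40, 95% interval -0.47 to 1.65, limma adjusted p = 0.360), 0.0529 without ADPKD replicate 2 and 1.12 without ADPKD replicate 1 (adjusted p = 0.110). The difference therefore rests on the library with Xist, which also had the highest neutrophil marker sum, 386 FPKM against 40.4 FPKM in ADPKD replicate 1 and at most 1.36 FPKM in WT; the part of either in the Scnn1a value was not tested.

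The proportions of the 3 subunit transcripts did not separate the groups. Their summed level was 98.9 and 110 FPKM in WT replicates 1 and 2, and 125 and 205 FPKM in ADPKD replicates 1 and 2. Scnn1a made up 51.6% and 61.0% of that sum in WT and 48.6% and 62.7% in ADPKD. The share of Scnn1b was 29.6% and 25.6% in WT and 33.2% and 25.2% in ADPKD, and that of Scnn1g 18.8% and 13.4% in WT and 18.2% and 12.1% in ADPKD. Both replicate 2 libraries thus had a larger alpha share than both replicate 1 libraries, whatever the genotype. The log2 ratio of Scnn1b to Scnn1a differed by 0.0934 between ADPKD and WT (exact permutation p = 1).

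**Figure D2:**
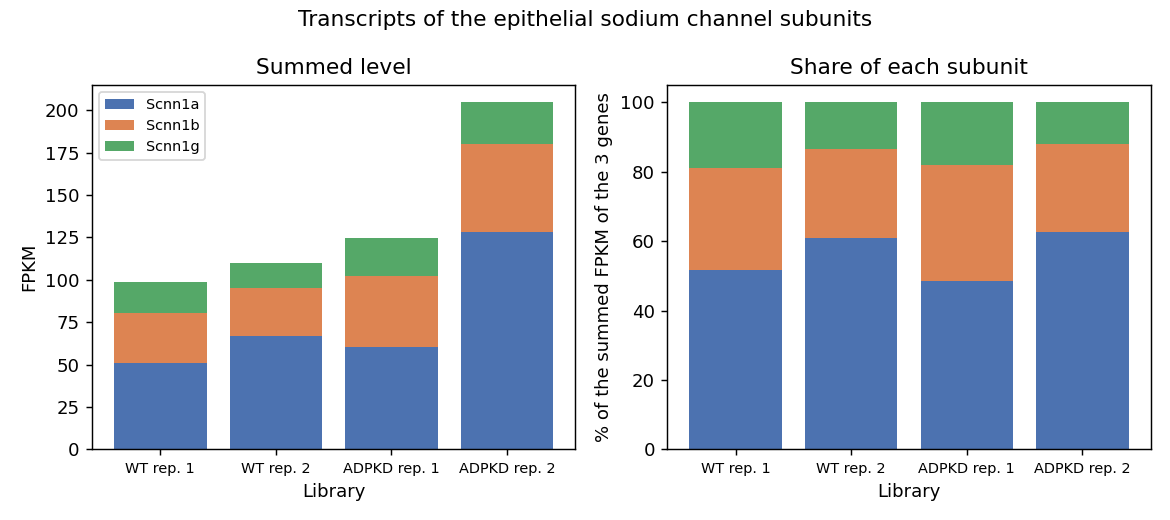
Left, FPKM of Scnn1a, Scnn1b and Scnn1g stacked for each library; right, the same as % of their sum. The sum runs from 98.9 FPKM in WT replicate 1 to 205 FPKM in ADPKD replicate 2, and the alpha share is 48.6% to 51.6% in the replicate 1 libraries and 61.0% to 62.7% in the replicate 2 libraries.

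Scnn1g and Scnn1b are neighbours on chromosome 7, on the same strand, with 96562 bases between the end of the first and the start of the other. Their upstream windows are shown because these 2 adjacent genes stood higher in both ADPKD libraries, though neither passed the test. Shared control of the 2 genes was not tested. Each is the 250 bases before the RefSeq start on GRCm38.p6, plus strand, 5′ to 3′, chr7:121864788-121865037 for Scnn1b and chr7:121734229-121734478 for Scnn1g.
Scnn1b: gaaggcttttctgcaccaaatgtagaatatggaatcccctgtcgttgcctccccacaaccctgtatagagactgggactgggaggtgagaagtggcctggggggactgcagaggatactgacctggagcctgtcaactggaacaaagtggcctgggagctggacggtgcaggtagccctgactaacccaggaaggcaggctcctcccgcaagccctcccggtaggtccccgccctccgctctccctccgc
Scnn1g: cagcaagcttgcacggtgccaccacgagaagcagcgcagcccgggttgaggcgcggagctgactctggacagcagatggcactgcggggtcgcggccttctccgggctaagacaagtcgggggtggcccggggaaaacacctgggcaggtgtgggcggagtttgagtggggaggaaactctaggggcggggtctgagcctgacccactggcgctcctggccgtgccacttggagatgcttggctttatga
Neither window has a capital: none of the 3 motifs searched before Aqp2 occurs in these letters, on either strand. This says nothing of elements farther away.

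Fxyd4, which encodes a small regulator of the sodium pump also known as corticosteroid hormone-induced factor (chromosome 6, 117933559 to 117937692, minus strand), stood at 15.2 and 20.1 FPKM in WT and 22.2 and 22.4 FPKM in ADPKD. The ADPKD libraries lay above both WT libraries and close to each other. The log2 fold change was 0.33 (SE 0.18, 95% interval -0.16 to 0.82, limma adjusted p = 0.278), and 0.11 with median-of-ratios scaling. Leaving out WT replicate 1 gave 0.14, and leaving out WT replicate 2 gave 0.52. Its family was not as even. Of the other FXYD genes 4 were tested: Fxyd5 and Fxyd6 rose and Fxyd2 fell. Fxyd2, the gamma subunit of the sodium pump and the most abundant of the family here, fell from 756 and 732 FPKM in WT to 286 and 245 FPKM in ADPKD (log2 fold change -1.49, SE 0.18, limma adjusted p = 0.0226). Fxyd5 (dysadherin) rose from 2.34 and 2.21 to 9.41 and 9.38 FPKM (log2 fold change 1.67, SE 0.15, limma adjusted p = 0.0178), and Fxyd6 rose by 1.02 (SE 0.20, limma adjusted p = 0.0420). The Fxyd6 call was lost with quantile normalization (0.103) and median-of-ratios scaling (0.10). None of the 3 calls held when any 1 of the 4 libraries was left out, with adjusted p from 0.0504 to 0.174.

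**Figure D3:**
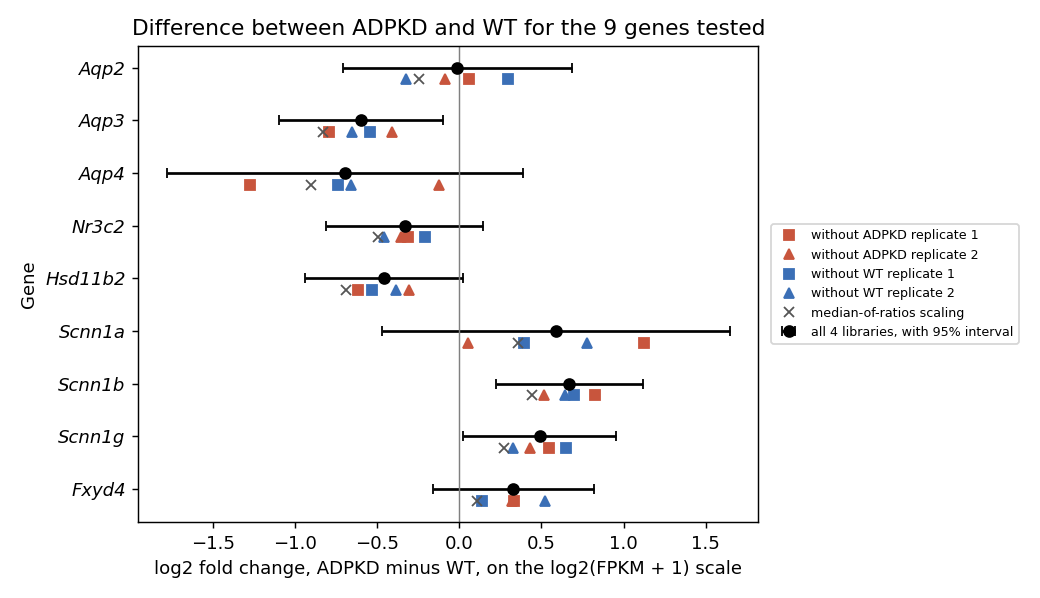
Log2 fold change (ADPKD minus WT, on the log2(FPKM + 1) scale) of the 9 genes tested, as black points with 95% limma intervals; the coloured symbols below each give the value with 1 library left out, and the crosses that with median-of-ratios scaling. The values lie between -0.70 and 0.67, the symbols of Scnn1a and Aqp4 are the most spread, and the interval lies on 1 side of 0 for Aqp3, Scnn1b and Scnn1g.

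Of 9 other genes that mark principal cells or their precursors, 3 rose and 0 passed on the lower side. Their median log2 fold change was 0.49, against 0.18 over all genes tested, and it was 0.32 without WT replicate 2. Among the genes not called, Gata2 (-0.22) and Elf5 (-0.060) lay below 0. Npnt (0.10), Apela (0.33), Gata3 (0.49) and Tfcp2l1 (0.51) lay above 0. The groups overlapped for Gata2, Elf5 and Npnt. Hoxb7, a homeobox gene of the ureteric bud and collecting duct, rose from 11.3 and 12.5 FPKM in WT to 26.6 and 24.1 FPKM in ADPKD (log2 fold change 1.03, SE 0.15, limma adjusted p = 0.0281). Wnt7b, a Wnt ligand gene of the collecting duct, rose by 1.52 (SE 0.24, limma adjusted p = 0.0315); another gene covers 6.61% of its exons. Neither call held without ADPKD replicate 1 (adjusted p 0.0841 to 0.106) or without ADPKD replicate 2 (0.0932 to 0.104). That of Hoxb7 was also lost without WT replicate 1 (0.0976), without WT replicate 2 (0.0942) and with median-of-ratios scaling (0.0520), and that of Wnt7b without WT replicate 2 (0.0906).

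Of 16 tested genes that carry the vasopressin signal to Aqp2 or move its vesicles, 0 passed in either direction, with a median log2 fold change of 0.18, close to that of all genes tested. The smallest adjusted p belonged to Ezr, the gene of ezrin, which links membrane proteins to actin, at 128 and 133 FPKM in WT and 206 and 253 FPKM in ADPKD (log2 fold change 0.80, SE 0.18, limma adjusted p = 0.0511). It was called higher under 5 of the 13 alternatives, with adjusted p from 0.0342 with voom on recovered reads to 0.0492 with a pseudocount of 0.1, and its adjusted p was 0.214 with median-of-ratios scaling. Snap23, a SNARE gene of vesicle fusion, came next at 10.3 and 10.7 FPKM in WT and 13.5 and 12.1 FPKM in ADPKD (0.26, SE 0.15, limma adjusted p = 0.288).

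Of 11 local modulators of water transport tested, 2 rose, 0 fell and the median log2 fold change was 0.87, or 0.38 without WT replicate 2. Ptger3 (-1.04, limma adjusted p = 0.0852) and Casr (-0.87, limma adjusted p = 0.0996) stood lower without passing. Both had the ADPKD libraries below both WT libraries, beside 21.0% of all genes tested. Ptges, Ptgs1, Ptgs2, Adora1 and P2ry2 stood higher without passing, and the groups overlapped for Ptger1 and Ednrb. Edn1, the gene of endothelin-1, a peptide that the collecting duct makes and that opposes water and sodium uptake there, rose from 1.20 and 1.01 FPKM in WT to 25.4 and 14.9 FPKM in ADPKD (log2 fold change 3.28, SE 0.29, limma adjusted p = 0.0177). Ptger4, the gene of a prostaglandin E2 receptor that raises cAMP, rose from 0.638 and 0.635 to 3.10 and 3.99 FPKM (1.47, SE 0.19, limma adjusted p = 0.0245); other genes cover 16.5% of its exons. Edn1 kept its call without ADPKD replicate 1 (adjusted p = 0.0396), WT replicate 1 (0.0298) or WT replicate 2 (0.0426) and lost it without ADPKD replicate 2 (0.0662), a fit in which no gene of the whole table was called. Ptger4 lost its call without any 1 library (0.0512 to 0.102). The endothelin and prostaglandin genes are made by several kidney cell types, and the macrophage marker sum was 36.3 and 59.7 FPKM in WT and 406 and 878 FPKM in ADPKD; its part in these values was not tested.

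Genes that act on ENaC or respond to aldosterone went both ways. Of 13 tested, 1 rose and 2 fell. The median log2 fold change was 0.17, and its sign turned with the library left out: it ran from -0.083 without WT replicate 1, over 0.016 without ADPKD replicate 2, to 0.29 without WT replicate 2. St14, the gene of the membrane protease matriptase, rose from 14.5 and 13.9 FPKM in WT to 35.7 and 34.9 FPKM in ADPKD (log2 fold change 1.26, SE 0.14, limma adjusted p = 0.0209). Prss8, the gene of prostasin, a protease that activates ENaC, fell from 212 and 205 to 125 and 109 FPKM (-0.83, SE 0.16, limma adjusted p = 0.0398). Usp2, the gene of a deubiquitinase that acts on ENaC, fell from 67.5 and 82.0 to 38.5 and 43.9 FPKM (-0.84, SE 0.17, limma adjusted p = 0.0464). All 3 calls were lost when any 1 library was left out, with adjusted p from 0.0578 to 0.179. Prss8 also lost its call with quantile normalization (0.0766), and Usp2 with median-of-ratios scaling (0.0697). Sgk1, the classical aldosterone-induced kinase gene, chosen after its values were seen, stood at 64.3 and 72.9 FPKM in WT and 50.4 and 40.8 FPKM in ADPKD (-0.58, SE 0.18, limma adjusted p = 0.0969).

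Of 5 genes tested for the sodium pump and potassium channels 0 passed, with a median log2 fold change of -0.0533 (-0.27 without ADPKD replicate 2). Kcnj1, which encodes the potassium channel ROMK of principal cells and of the thick ascending limb, stood at 80.9 and 67.1 FPKM in WT and 41.8 and 29.0 FPKM in ADPKD (log2 fold change -1.06, SE 0.23, limma adjusted p = 0.0527). It was called lower under 5 of the 13 alternatives, among them voom on recovered reads (0.0349) and median-of-ratios scaling (0.0379). Kcnj10, a basolateral potassium channel gene, stood at 17.3 and 15.3 FPKM in WT and 10.6 and 11.1 FPKM in ADPKD (-0.54, SE 0.15, limma adjusted p = 0.0803). Both lay below WT in both ADPKD libraries, beside 21.0% of all genes tested.

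Among the relatives of the water channels, only Aqp11, the gene of an intracellular aquaporin of the proximal tubule whose loss in mice gives polycystic kidneys, was called. It fell from 7.34 and 7.86 FPKM in WT to 2.76 and 2.70 FPKM in ADPKD (log2 fold change -1.20, SE 0.15, limma adjusted p = 0.0243), 1 of 4 other aquaporins tested. Its call was lost when any 1 library was left out (adjusted p 0.0643 to 0.122). Aqp6, the gene of an intracellular channel of intercalated cells, stood at 36.5 and 53.2 FPKM in WT and 26.9 and 16.6 FPKM in ADPKD (-1.03, SE 0.31, limma adjusted p = 0.0969). Of the other steroid receptor genes and Hsd11b1 4 were tested and 0 passed. Under some alternatives 1 gene of this list was called lower, among them quantile normalization, median-of-ratios scaling and voom on recovered reads. Esr1, an estrogen receptor gene, stood at 2.76 and 2.72 FPKM in WT and 2.96 and 4.76 FPKM in ADPKD (0.35, SE 0.24, limma adjusted p = 0.353). Avpr1a, another vasopressin receptor gene, stood at 3.63 and 2.04 FPKM in WT and 3.29 and 1.67 FPKM in ADPKD (limma adjusted p = 0.792). Asic1, of the acid-sensing channels related to ENaC, stood between 0.958 and 1.28 FPKM in the 4 libraries (limma adjusted p = 0.841).

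Among genes of urea and osmolyte transport in the medulla, 1 rose. Slc14a2, which encodes the urea transporters UT-A of the inner medulla, rose from 19.6 and 11.2 FPKM in WT to 113 and 250.5 FPKM in ADPKD (log2 fold change 3.41, SE 0.47, limma adjusted p = 0.0265). It was 1 of 7 medullary urea and osmolyte genes tested, and 0 fell. Their median was -0.58, but 0.23 without ADPKD replicate 2, 0.54 without WT replicate 1 and 0.61 among genes with a mean of at least 5 FPKM. Nfat5, the gene of the transcription factor of the osmotic response, stood at 6.09 and 5.10 FPKM in WT and 13.4 and 8.70 FPKM in ADPKD (0.85, SE 0.25, limma adjusted p = 0.0909). The Slc14a2 call held without WT replicate 1 (adjusted p = 0.0385). It was lost without ADPKD replicate 1 (0.0505), ADPKD replicate 2 (0.0867) or WT replicate 2 (0.0674).

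Markers of the other tubule segments had lower medians than the water and sodium genes in the same libraries; this difference between lists was not tested. The median log2 fold change was -1.73 for 7 proximal tubule markers (4 fell) and -1.85 for 5 of the thick ascending limb (3 fell). It was -1.62 for 3 of the distal convoluted tubule (2 fell) and -1.35 for 7 of intercalated cells (2 fell). Of these markers 0 passed on the higher side. Each list also held a marker with a positive value that did not pass: Slc5a12 (0.24), Cldn16 (0.45), Trpm6 (0.62) and Atp6v0d2 (0.19), in the same order. The intercalated cell median was -0.88 without ADPKD replicate 2. Slc4a1, the chloride-bicarbonate exchanger gene of the intercalated cells that neighbour principal cells, fell from 13.4 and 14.2 FPKM in WT to 1.05 and 0.789 FPKM in ADPKD (-2.95, SE 0.16, limma adjusted p = 0.0152). The log2 fold change was -4.82 for Pvalb, a marker of the early distal convoluted tubule (SE 0.20, limma adjusted p = 0.00985). It was -4.84 for Egf of the thick ascending limb (SE 0.34, limma adjusted p = 0.0164) and -1.15 for the proximal endocytic receptor gene Cubn (SE 0.14, limma adjusted p = 0.0228). Slc4a1, Pvalb and Egf kept their calls without ADPKD replicate 1, WT replicate 1 or WT replicate 2, and lost them, with all others, without ADPKD replicate 2 (adjusted p = 0.0662 for each); Cubn lost its call without any 1 library (0.0673 to 0.0938). The connecting tubule, whose cells also make ENaC and Aqp2, had a median of -0.93 over 4 markers (1 rose, 1 fell). With 1 library left out, this median ran from -1.46 to -0.40. Calb1 (-1.28, limma adjusted p = 0.164) and Slc8a1 (-0.58, limma adjusted p = 0.301) stood lower without passing. The groups overlapped for Slc8a1 and not for Calb1. Trpv5, a calcium channel gene, rose by 1.84 (SE 0.32, limma adjusted p = 0.0344). Klk1, the tissue kallikrein gene, fell by 2.52 on the log2 scale (SE 0.27, limma adjusted p = 0.0208). Trpv5 kept its call without WT replicate 1, and Klk1 without WT replicate 1 or WT replicate 2; both lost it without either ADPKD library.

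**Figure D4:**
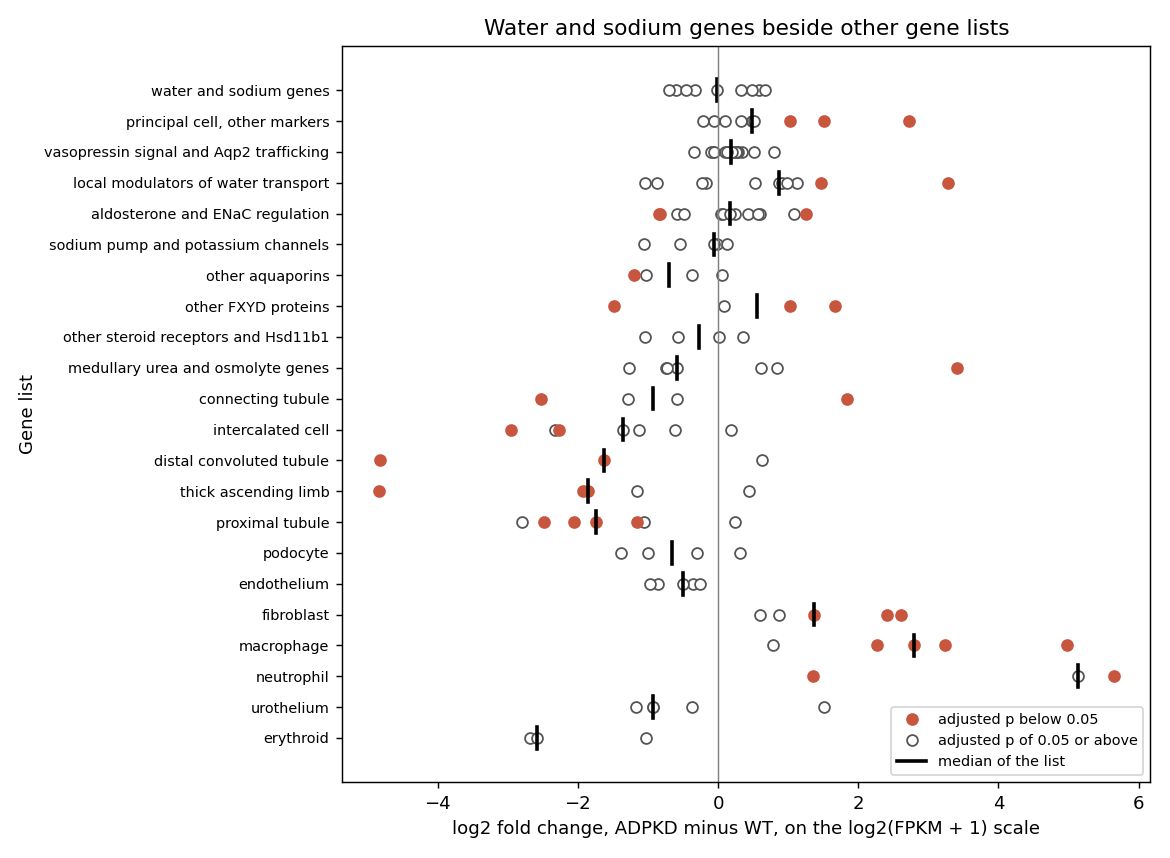
Log2 fold change (ADPKD minus WT, on the log2(FPKM + 1) scale) of each tested gene, by list, for lists with at least 3 tested genes; filled points passed the test, open points did not, and the bar is the median of the list. The water and sodium genes lie between -0.70 and 0.67 with no filled point, while markers of the proximal tubule, thick ascending limb, distal convoluted tubule and intercalated cells lie mostly below 0 and those of macrophages, neutrophils and fibroblasts above 0.

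Of the cell types outside the tubule, only fibroblast, macrophage and neutrophil markers gave calls. The summed FPKM of 5 fibroblast markers was 57.2 and 52.0 in WT and 276 and 231 in ADPKD, with 3 risen, and of the 5 macrophage markers 4 rose. Of 3 neutrophil markers 2 rose. Podocyte (4 tested) and endothelial (5 tested) markers gave 0 calls, with medians of -0.65 and -0.51. Leaving out ADPKD replicate 1 gave a podocyte median of 0.013, leaving out ADPKD replicate 2 one of -1.32, and the endothelial median became -0.30 in the first case. Urothelial markers (5 tested) gave 0 calls, with a median of -0.93; leaving out ADPKD replicate 2 gave 0.45, leaving out ADPKD replicate 1 gave -1.94. Erythroid markers (3 tested) gave 0 calls with a median of -2.58, which was -1.49 without ADPKD replicate 2 and -1.54 without WT replicate 1. Their summed FPKM was 1074 and 235 in WT and 135 and 47.7 in ADPKD, with WT replicate 1 standing apart. T cell markers gave 1 tested gene with 0 calls and a sum of at most 1.95 FPKM. B cell markers had a sum of at most 0.539 FPKM and none tested. Adrenal cortex markers summed to at most 2.10 FPKM, with Cyp11b1 at 0 in both WT libraries. The part of these shifts in the values of the water and sodium genes was not tested.

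The genes whose pattern over the 4 libraries lay nearest to Aqp2, by Euclidean distance of centred log2 values among 7225 genes with a mean of at least 5 FPKM, were Slc3a2, Itpr2 and Tspan1 (distances 0.109, 0.115 and 0.116). Among those nearest to Scnn1g were Vps72 and Sema4a (0.0614 and 0.0752). With 4 libraries many genes share a pattern, and no shared function is read from it.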

How the data were processed

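RNA of whole kidney was isolated with TRIzol and selected with oligo dT before sequencing, per the labels' protocols. Bowtie2 and the mm10 build are named in the submitters' processing notes without versions or roles. The deposited values are FPKM per gene name. Per the file headers, reads were counted with featureCounts 1.6.0 against the Ensembl annotation of GRCm38, release 98, over exons, with multiply aligned reads and without a strand or paired-end option. Positions and exon lengths (unit: bases) come from the deposited count table; its 16 columns of per-sample values (8 named for 8 libraries, 8 without a name) could not be matched to the 4 samples by name and were not used.

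Of 32176 rows, 25 with names turned into dates were left out. Multiplied by exon length, 100% of values came out as whole reads (tolerance 0.01 reads), which gave the depth and the reads for voom; 3 reads were taken as the limit of a 0. Log2(FPKM + 1) values of genes with a mean of at least 0.5 FPKM were fitted with limma 3.58.1 under R 4.3.3 (trended prior with 2.55 degrees of freedom, 2 residual ones) and tested two-sided with Benjamini-Hochberg adjustment over all 17001 genes. The fit was also run on simulated reads, which held no difference in sex between libraries. That run does not show how the test performs on these data. Intervals are limma's 95% intervals. The 10 genes, the lists and the rule for named genes were chosen with earlier results of these data known. The rule named the 10 genes, Pkd1, Xist, Ddx3y, the 2 list genes with the smallest adjusted p (1 for other cell types), genes that make up a count of 5 or fewer, and the 3 nearest genes to Aqp2 and to Scnn1g. Groups and replicate numbers come from the sample titles; in the table ADPKD is written PKD. Some genes that the rule selects are not reported here.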

Additional observations from a re-analysis of the deposited data

How the results depend on the processing

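None of the 9 tested water and sodium genes was called under any of the 13 alternative settings, and their log2 fold changes kept their sign wherever they were tested, except for Aqp2. The test over all genes, with 1604 called higher and 813 lower, was less stable. Quantile normalization gave 999 higher and median-of-ratios scaling 740; the median over all genes tested, 0.18 on the log2 scale, became -0.0125 and 0.00604. Of the calls, 66.4% were higher as deposited, 47.5% and 45.7% under those scalings. Without a filter on low values 1 gene was called higher and 0 lower, with 7251 at an unadjusted p under 0.05. With 1 library left out the number higher ran from 0 to 435 and the number lower from 0 to 250, the 0 without ADPKD replicate 2 (limma; 5039 genes at an unadjusted p under 0.05). Such fits have 1 residual degree of freedom, and the lone library of a group is taken to vary like the others. With the replicate block, which pairs samples that share a number in their titles and no stated origin, 1220 were higher and 625 lower; deviations of same-numbered samples correlated at 0.19 across genes. Of the 35 calls among list genes, 31 were kept with the block, 29 with quantile normalization, 27 with median-of-ratios scaling and 0 without a filter. The block lost the calls of Prss8 (adjusted p = 0.0513) and Slc14a2 (0.0514) and of the thick ascending limb genes Slc12a1 and Cldn10, and gave Kcnj1 one (0.0466). Avpr2 had at most 5 reads in a library, with depth and the overlap with Arhgap4 not told apart; the other 9 genes had at least 244 reads in each library.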

Other observations

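The larger alpha share of ENaC transcripts in both replicate 2 libraries was noticed after the values were seen, as were the genes named here. Of the 13 genes of aldosterone and ENaC regulation tested, 4 stood higher in both replicate 2 libraries than in both replicate 1 libraries, whatever the genotype, and 0 stood lower, beside 7.08% and 17.7% of all genes tested. The 4 aldosterone and ENaC genes were Tsc22d3, which encodes the glucocorticoid-induced leucine zipper protein (31.7 and 50.3 FPKM in WT, 39.8 and 56.5 FPKM in ADPKD), Per1, a clock gene that aldosterone induces (14.4 and 25.3 FPKM in WT, 19.4 and 24.1 FPKM in ADPKD), Zbtb16 (2.94 and 8.20 FPKM in WT, 6.44 and 10.1 FPKM in ADPKD) and the protease gene Furin (23.7 and 32.8 FPKM in WT, 26.8 and 31.8 FPKM in ADPKD). Of the 16 genes of vasopressin signalling and Aqp2 trafficking tested, 4 stood higher in this way (Gnas, Prkaca, Pde4d and Myo5b) and 3 lower (Prkar2b, Rab11fip2 and Stx4a). Among the 9 tested water and sodium genes Scnn1a alone had this order. Fkbp5, a chaperone gene that glucocorticoids induce, did not have this order, since WT replicate 2 lay below ADPKD replicate 1. It was higher in replicate 2 within each group only, at 9.82 and 20.5 FPKM in WT and 21.1 and 46.1 FPKM in ADPKD. Sgk1, of the same list, was higher in replicate 2 in WT (64.3 and 72.9 FPKM) and lower in replicate 2 in ADPKD (50.4 and 40.8 FPKM). The labels give no time of day, batch or other origin for the numbers, and the pattern has no test.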
